A study of Micropterus salmoides with 24 samples.

Results

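The head kidney contigs described here are 200 of the 78435 transcript contigs counted in the kidney of largemouth bass (Micropterus salmoides), a freshwater sport fish. They were chosen by their level: a mean of at least 1 CPM over the 12 head kidney libraries, at least 64 times the mean over the 12 trunk kidney libraries, and a count in at least 10 head libraries. CPM is a contig's count per 1000000 counts of its library. Of the 268 contigs that met these conditions, the 200 with the highest head mean were kept. The head and trunk values therefore chose the members, and the difference between the tissues is given below as a description, with no test.

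Adult males lived for 21 days in clean water, with 10 mg/L glyphosate, or with Rodeo at an equivalent glyphosate concentration. Glyphosate is a herbicide, and Rodeo is a commercial herbicide that has it as the active ingredient. The study asked what the 2 treatments change in head and trunk kidney, and RNA was sequenced from 4 samples of each tissue and treatment. The 6 groups are head control, head glyphosate, head Rodeo, trunk control, trunk glyphosate and trunk Rodeo. The controls received no herbicide. Tank of origin is not labelled, so p-values weigh a difference against the spread between these samples, whatever they share. Which fish each library came from is not labelled either. Glyphosate fish and Rodeo fish below mean the libraries with that label. The head libraries held 9871623 to 24374444 counts and the trunk libraries 22259411 to 29858387.

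In bony fish the head kidney is the front part of the kidney and has few or no nephrons. It is the main blood-forming organ, it makes and matures immune cells, and it holds the interrenal cells that secrete cortisol and the chromaffin cells that secrete catecholamines. The trunk kidney carries the nephrons that filter blood and recover ions. None of the contig identifiers could be paired with a gene name (0 matches), so no member is assigned a gene, a cell type or a role here. For the same reason the labelled tissues could not be checked against defining markers. Contig lengths are not in the files, so a level of one contig against another is not a comparison per length. One gene may be split over several contigs, and reads may be divided among contigs of similar sequence. How strand was used in counting is not given in the sources used here, and each contig's own value carries that uncertainty.

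A pattern of presence and absence linked head to trunk libraries across treatment labels. Over 18 contigs that were either abundant or nearly absent in both tissues, 8 head libraries matched 1 trunk library each in 94.4% to 100% of the contigs, while the other 136 pairs reached at most 88.9% (median 50%). The treatment labels were the same in 0 of the 8 pairs. Trunk glyphosate 4 went with head control 2, for example, and trunk control 1 with head glyphosate 3. None of the 18 contigs is a member. The head libraries with no match were control 1, glyphosate 2, Rodeo 2 and Rodeo 4. The matched ones were control 2, 3 and 4, glyphosate 1, 3 and 4, and Rodeo 1 and 3. All arms of the head comparisons below therefore hold matched libraries. Why the labels differ was not tested. Comparisons between treatments below are given by the labels, and for some results again with the 4 unmatched head libraries alone. Having no match does not show that a label is right, and only 1 control and 1 glyphosate library are among the 4. That set therefore cannot decide whether a result depends on the labels.

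The members spanned a wide range of levels in head kidney. Their means over the 12 head libraries ran from 1.86 to 951 CPM with a median of 8.84 CPM. A mean of at least 100 CPM was held by 22 members, 69 lay between 10 and 100 CPM, and 109 lay under 10 CPM. Abundance was concentrated: the first 5 members carried 31.7% of the members' summed head CPM and the first 20 carried 72.9%. By kind of identifier, 75 members were named LMB_Assem, 64 contig and 61 isotig. The contig kind made up 32% of the members but 16.8% of the 30414 contigs with a head mean of at least 1 CPM, and the LMB_Assem kind 37.5% against 55.6%. The meaning of the 3 kinds is not given in the sources used here.

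**Figure D1:**
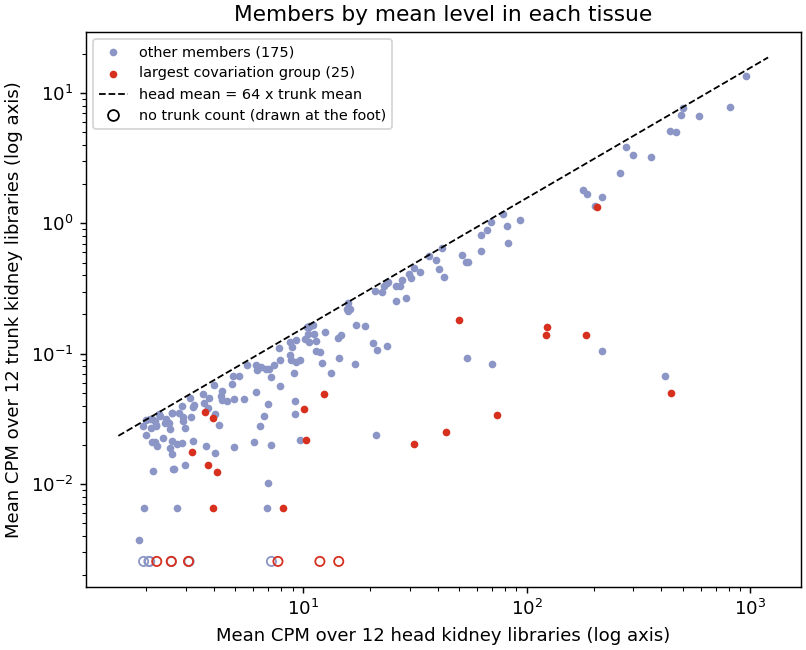
Mean level of each member in head kidney (x axis, CPM, log scale) against trunk kidney (y axis, CPM, log scale), 1 point per contig. The members lie below the dashed line of a 64-fold ratio by construction, red points (the largest covariation group, described below) mostly far below it, and the 12 members with no trunk count are open circles drawn at the foot of the plot, not at a measured level.

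At the edge of the limit, contig05429 was the last member taken (head mean 1.86 CPM, 0.00373 CPM in trunk), and isotig102893 was the first left out (head mean 1.81 CPM, trunk mean 0.0204 CPM). At the edge of the ratio, contig00509 was 64.5 times as high in head as in trunk, and isotig111405, at 63.8 times, was left out.

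Restricted did not mean absent from trunk kidney. The median trunk mean of the members was 0.0668 CPM. Counts in all 12 trunk libraries were present for 20 members, 12 members had none, and 7 rested on 1 to 3 trunk counts in all. A count of 0 over all 12 trunk libraries allows up to 0.0102 CPM (3 counts, counting error only). The head mean over the trunk mean had a median of 103 and quartiles of 78.2 and 200, with members lacking a trunk count set at that floor. It was over 256 for 34 members and over 1000 for 11. Every head library lay above every trunk library for 164 of the 200 members, and for 88 the lowest head library was at least 8 times the highest trunk library. For the other 36, at least 1 head library was no higher than a trunk library. In bulk tissue, fewer cells of a type and less RNA per cell cannot be told apart.

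Together the members took about 1% of the head kidney counts. Their summed share was 1.12, 0.973, 1.04 and 1.30% in the head controls, 0.957, 1.48, 0.827 and 0.858% in head glyphosate, and 1.04, 1.30, 0.971 and 0.788% in head Rodeo. The group means were 1.11% ± 0.140 in controls, 1.03% ± 0.304 with glyphosate and 1.03% ± 0.214 with Rodeo (SD, n = 4), and the 3 groups overlapped. These sums lean on few members in the highest libraries. In glyphosate 2, LMB_Assem.1428.C1 alone gave 4649 of the 14780 summed CPM. A group of 25 members described below gave 4630 of 12991 CPM in control 4 and 3431 of 13040 CPM in Rodeo 2. In trunk the shares were 0.00852, 0.00970, 0.0109 and 0.0252% in controls, 0.00895, 0.00411, 0.00578 and 0.00372% with glyphosate, and 0.0110, 0.00921, 0.00955 and 0.0116% with Rodeo. Trunk control 4 stood above all other trunk libraries, at 2.17 times the next highest. It held a count for 143 members, against 59 to 113 in the other trunk libraries, and was the highest trunk library for 77 members. Leaving it out of the choice of members kept 163 of the 200.

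**Figure D2:**
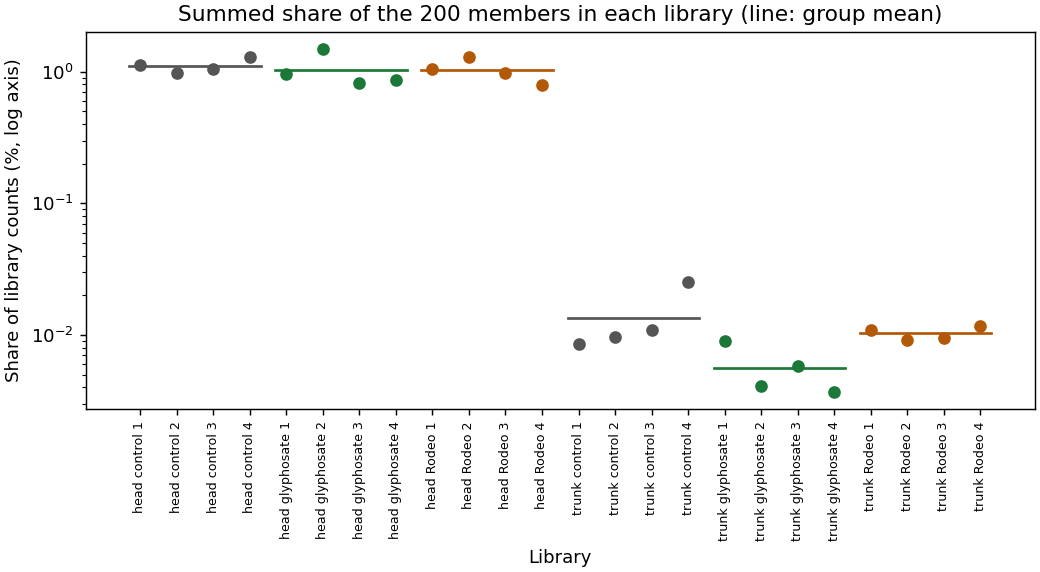
Summed share of library counts taken by the 200 members (y axis, %, log scale) in each of the 24 libraries, with the group mean as a line. Head libraries lie between 0.788 and 1.48% and trunk libraries between 0.00372 and 0.0252%, with trunk control 4 the highest of the trunk libraries.

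The most abundant member, contig79349, was at 1156, 918, 974 and 1022 CPM in the controls, 1251, 1139, 537 and 479.9 CPM in the glyphosate fish and 890.2, 1011, 1428 and 611 CPM in the Rodeo fish. Its head mean was 951 CPM, and in trunk it ranged from 1.66 to 37.3 CPM with a median of 13.4 CPM, the highest trunk mean of the members. The lowest head values were in glyphosate 3 and 4 and Rodeo 4, and the groups overlapped.

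The next member, contig38179, was at 480.1, 437, 1519.7 and 164 CPM in the controls, 557, 359, 782 and 1208 CPM in the glyphosate fish and 1109, 688, 924 and 1472 CPM in the Rodeo fish. Its trunk values ran from 0.428 to 23.4 CPM. Control 3 and Rodeo 4 were highest and control 4 lowest, so the controls alone spanned the whole head range.

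LMB_Assem.1129.CB1 was at 874, 766, 88.03 and 645 CPM in the controls, 665, 130.1, 504 and 439 CPM in the glyphosate fish and 918, 856, 713 and 471 CPM in the Rodeo fish. Control 3 and glyphosate 2 were several times below the other 10 head libraries. Its trunk values, from 2.25 to 15.9 CPM, stayed below both.

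contig56602 was at 657, 547, 518 and 599 CPM in the controls, 719, 656, 386 and 274 CPM in the glyphosate fish and 389, 549, 413 and 282 CPM in the Rodeo fish. The fifth, contig69420, was at 1240.1, 421, 453 and 326 CPM in the controls, 574, 384, 348 and 234 CPM in the glyphosate fish and 645, 468, 499 and 309 CPM in the Rodeo fish. Control 1 was the highest library for contig69420, 2.74 times the next control, while glyphosate 4 was the lowest head library for both contigs. In both, the 3 groups overlapped. The trunk values were 3.35 to 17.98 CPM for contig56602 and 3.88 to 13.97 CPM for contig69420.

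The members' levels varied widely between head libraries. The coefficient of variation (CV, SD over mean) across the 12 head libraries had a median of 0.586 among members, from 0.181 to 3.20, against 0.440 among the 30414 contigs with a head mean of at least 1 CPM. The levels that chose the members came from these same libraries, so the 2 medians are set side by side with no test. They are not matched for level. In the edgeR fit used below, the median CV within groups beyond counting error was 0.545 among members and 0.535 among all 38656 contigs tested. That fit draws each contig's value towards those of other contigs. The highest head library was a median of 6.76 times the lowest, on CPM + 0.5. A CV over 1 was found for 29 members and one under 0.25 for 9.

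The steadiest was contig51755, at 363, 362, 425 and 435 CPM in the controls, 332, 266, 236 and 421 CPM in the glyphosate fish and 415, 396, 342 and 303 CPM in the Rodeo fish. contig91712 was next with a CV of 0.195, between 17.6 CPM in control 1 and 35.4 CPM in control 2. At the other end, LMB_Assem.1428.C1 had 92.8% of its head CPM in the single library glyphosate 2. isotig90651, with a CV of 1.77, was at 7.31, 5.42, 0 and 0.558 CPM in the controls, 8.79, 0.766, 1.76 and 0.727 CPM in the glyphosate fish and 0.918, 8.79, 41.2 and 1.25 CPM in the Rodeo fish. Rodeo 3 alone held 53.2% of its head CPM, and control 3 had none.

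A gap of more than 8-fold split the head libraries of 2 members. One is LMB_Assem.1428.C1. The other, contig16918, was at 23.98, 37.8, 0 and 0.139 CPM in the controls, 26.3, 0.109, 0.09005 and 0.416 CPM in the glyphosate fish and 0, 22.4, 1.06 and 25.01 CPM in the Rodeo fish, chosen for mention after its values were seen. Its 5 high libraries came from all 3 groups, and its highest trunk value was 0.506 CPM.

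Most members did not vary together. Over the 19900 pairs of members, the correlation of log2(CPM + 0.5) across the 12 head libraries had a median of 0.11 and exceeded 0.7 in 4.54% of pairs. Clustering by that correlation placed 77 members in 9 groups of at least 5, and 123 members in none. The groups were formed from these same libraries, so their patterns are descriptions, and the points share library and depth.

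**Figure D3:**
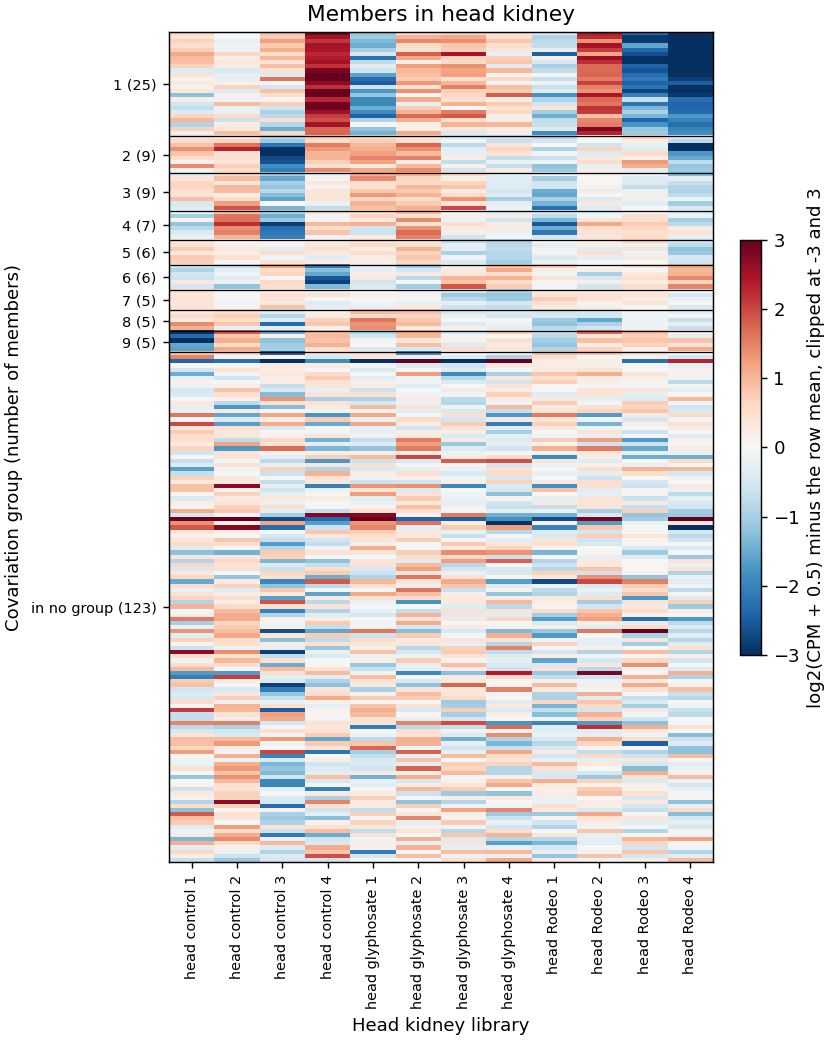
Level of the 200 members in the 12 head libraries, as log2(CPM + 0.5) with each contig's own mean subtracted. The members are ordered by covariation group; the 25 members of the largest group are high together in control 4 and Rodeo 2 and low together in Rodeo 4.

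The largest group held 25 members that swung together over a wide range. Its mean log2(CPM + 0.5) was 3.54, 3.39, 3.60 and 5.82 in the controls, 1.97, 4.15, 4.22 and 3.82 with glyphosate, and 2.57, 5.19, 1.18 and 0.23 with Rodeo, a span of 5.59 (48.1-fold). Control 4 was the highest library for 21 of the 25 and Rodeo 2 for 3, and Rodeo 4 was the lowest for 22. As summed CPM the group went from 40.3 in Rodeo 4 to 4630 in control 4 and 3431 in Rodeo 2. The correlation of its mean with the log of the library total was 0.30 over the 12 libraries. Of the 2 libraries with the highest means, control 4 belongs to a matched pair across labels and Rodeo 2 does not.

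**Figure D4:**
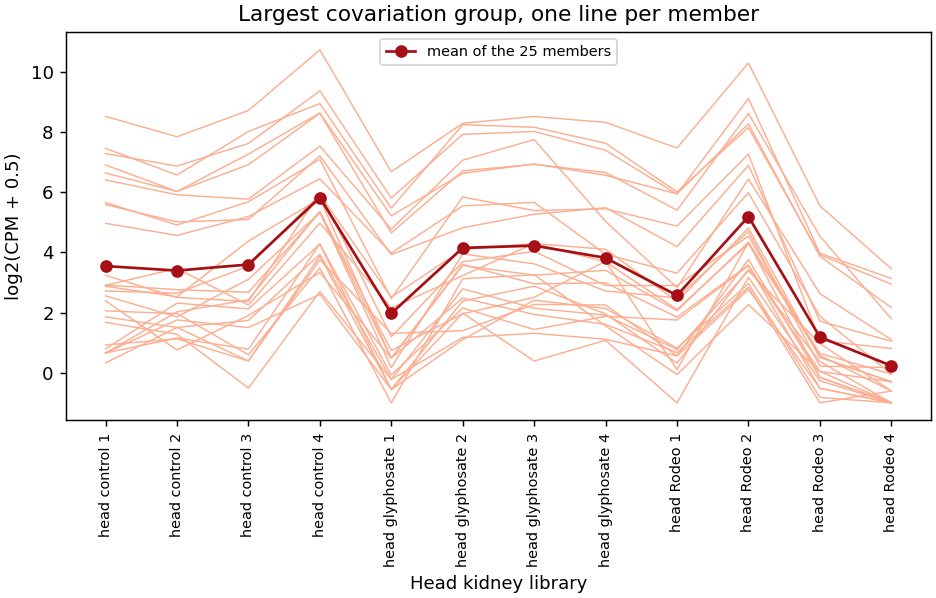
Levels of the 25 members of the largest group, as log2(CPM + 0.5), in the 12 head libraries; thin lines are contigs and the thick line is their mean. The mean runs from 0.23 in Rodeo 4 to 5.82 in control 4, and libraries of one treatment lie far apart.

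Its most abundant member, contig72266, was at 366, 229, 419.8 and 1695 CPM in the controls, 102, 312, 365 and 319 CPM in the glyphosate fish and 176, 1253, 46.2 and 10.5 CPM in the Rodeo fish. Its trunk maximum was 0.250 CPM, and its head mean over trunk mean of 8784 was the highest of the members. The other members of the group had head means down to 2.23 CPM. The group also stood furthest from trunk: the median head over trunk was 476 among its 25 members and 93.1 among the other 175, and 6 of the 25 had no trunk count against 6 of the 175. The median CV was 1.12 in the group and 0.543 outside it. As the ratio chose the members, no test of this contrast was made. The group took 13.1% of the members' summed head CPM.

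The other 8 groups were smaller. A group of 9 led by LMB_Assem.0.C857 was highest in glyphosate 2 and lowest in control 3, with means 9.69-fold apart. Another 9, led by contig08940, were highest in glyphosate 1 and lowest in Rodeo 1, and 7 led by contig01539 were highest in control 2 and lowest in control 3. The 6 led by contig79349 all have identifiers of the contig kind and spanned only 2.86-fold, from glyphosate 4 to glyphosate 2. The 6 led by contig38179 spanned 8.23-fold, from control 4 to Rodeo 4. Groups of 5 were led by LMB_Assem.11263.C1 (2.49-fold, glyphosate 4 to Rodeo 1), contig67525 (4.04-fold, control 3 to glyphosate 1) and LMB_Assem.6765.C1 (11.4-fold, control 1 to control 2). In 3 of the 9 groups the lowest library was control 3. That library had the fewest counts of the head libraries (9871623) and held a count for 184 members. It was the lowest head library for 49 members, and the part of depth in this was not tested.

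LMB_Assem.6765.C1 itself was at 2.37, 127.9, 13.1 and 69.7 CPM in the controls, 19.1, 78.6, 25.4 and 62.8 CPM in the glyphosate fish and 23.1, 116, 69.1 and 43.1 CPM in the Rodeo fish. Control 2 was 54.1 times control 1, so the controls held both ends of its range. LMB_Assem.11263.C1 was steadier, at 614, 516, 521 and 390.2 CPM in the controls, 460.0, 404, 351 and 242 CPM in the glyphosate fish and 543, 561, 549 and 456 CPM in the Rodeo fish. Its lowest library was glyphosate 4, and all 4 Rodeo libraries were above 3 of the 4 glyphosate libraries.

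LMB_Assem.0.C857 was at 51.7, 47.3, 20.7 and 63.8 CPM in the controls, 55.4, 50.7, 27.6 and 24 CPM in the glyphosate fish and 20.2, 42.4, 57.7 and 26.7 CPM in the Rodeo fish. contig08940 was at 17.9, 35.5, 11.1 and 18.8 CPM in the controls, 50.2, 48.5, 35.97 and 18.4 CPM in the glyphosate fish and 21.8, 25.6, 21.4 and 9.14 CPM in the Rodeo fish. The first was highest in control 4 and lowest in Rodeo 1 and control 3, the second highest in glyphosate 1 and 2 and lowest in Rodeo 4 and control 3, and the groups overlapped in both.

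contig01539 was at 23.98, 48.4, 14.5 and 38.6 CPM in the controls, 39.7, 53.1, 24.7 and 21.5 CPM in the glyphosate fish and 20.2, 21.6, 29.6 and 20.6 CPM in the Rodeo fish. contig67525 was at 62.7, 75.5, 38.6 and 56.98 CPM in the controls, 96.9, 92.9, 35.9 and 37.9 CPM in the glyphosate fish and 34.95, 35.03, 48.1 and 41.3 CPM in the Rodeo fish. For contig67525 the 2 highest libraries were glyphosate 1 and 2 and the lowest were Rodeo 1 and 2, and in both contigs the groups overlapped.

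Identifiers of the LMB_Assem kind carry a number that several contigs can share; whether it marks 1 gene is not stated in the sources used here. Of the 75 members of this kind, 30 carry the number 0, which 7424 contigs share, 26 were alone with their number and 19 had partners. Among 28 partners with at least 1 CPM in a tissue, 6 were themselves members, which the rule sets above 8-fold. Of the 22 that were not members, 19 (86.4%) were at least 8 times as high in head as in trunk. Of the 37011 contigs at that level, 8.05% were. Several partners share a number with each other, so they are not separate observations, and no test was made. LMB_Assem.3270.C1 and LMB_Assem.3270.C2 followed each other over the head libraries (r = 0.98), LMB_Assem.1129.CB1 and LMB_Assem.1129.C7 less closely (r = 0.76). One partner went the other way: LMB_Assem.1428.C7 averaged 2.59 CPM in head and 269 CPM in trunk, while LMB_Assem.1428.C1 averaged 417 and 0.0679 CPM. The head mean of LMB_Assem.1428.C1 rested on glyphosate 2: it was 32.6 CPM without that library, and the head median was 0.820 CPM. Shared reads between such partners were not tested.

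Treatment comparisons were made within head kidney, where the members' choice used no treatment label, on all 38656 contigs that passed a low-count filter, all 200 members among them. With glyphosate against control, no member passed an adjusted p of 0.05 in edgeR's quasi-likelihood test, and 0% of all contigs did. The lowest adjusted p among members was 0.761. At an unadjusted p under 0.05 there were 17 members (8.5%), against 6.42% of all contigs. Of these, 8 were higher with glyphosate (4%, against 2.69% of all contigs) and 9 lower (4.5%, against 3.73%). DESeq2 called 1 member (0.5%), LMB_Assem.1428.C1, against 0.0388% of all contigs. The groups did not overlap for 2 members (1%), against 2.98% of all contigs. The median log2 fold change was -0.14 among members, and 0.05 among all contigs. It was above 0 for 83 members (41.5%), against 53.2% of all contigs.

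LMB_Assem.1428.C1 had the largest difference: it was at 0.538, 0.656, 0 and 0.976 CPM in the controls and 0.179, 4649, 0.1801 and 317 CPM in the glyphosate fish. Glyphosate 2 and 4 were far above every control, while glyphosate 1 and 3 lay within the control range. The fitted log2 fold change was 10.93 ± 2.50 (SE), with an adjusted p of 0.761 in edgeR, and 7.38 without glyphosate 2. In DESeq2 the adjusted p was 0.000224, and over the 15 alternatives it ran from 0.000224 to 0.984.

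LMB_Assem.1066.C8 was at 10.97, 16.98, 10.3 and 5.16 CPM in the controls and 11.5, 13.1, 64.7 and 69.8 CPM in the glyphosate fish. Glyphosate 3 and 4 were high and the other 2 lay within the control range. The difference was 1.80 ± 0.56 (SE) on the log2 scale, with an edgeR adjusted p of 0.761. Glyphosate 3 and 4 both match trunk libraries labelled as controls, and controls 2, 3 and 4 match trunk libraries labelled as glyphosate or Rodeo. With only the unmatched head libraries the log2 fold change was -0.06, but that set leaves out both high libraries. It therefore cannot show whether the difference depends on the labels.

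contig40172 was at 13.8, 10.01, 9.62 and 9.07 CPM in the controls and 6.28, 6.68, 4.998 and 3.58 CPM in the glyphosate fish. All 4 glyphosate libraries were below all 4 controls, with a log2 fold change of -1.08 ± 0.40 (SE) and an edgeR adjusted p of 0.761. LMB_Assem.0.C320 was at 47.6, 41.3, 36.1 and 42.3 CPM in the controls and 29.2, 40.2, 24.2 and 26.9 CPM in the glyphosate fish, with glyphosate 2 inside the control range (log2 fold change -0.57 ± 0.22 SE, edgeR adjusted p 0.761).

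With Rodeo against control, no member and 0% of all contigs passed the adjusted threshold, and the lowest adjusted p among members was 0.998 in edgeR. At an unadjusted p under 0.05 there were 11 members (5.5%), against 4.7% of all contigs, with 4 higher (2%, against 2.27%) and 7 lower (3.5%, against 2.43%). DESeq2 called 0 members, against 0.129% of all contigs. The groups did not overlap for 5 members (2.5%), against 2.97%. The median log2 fold change was -0.25 among members, and -0.01 among all contigs. It was above 0 for 79 members (39.5%), against 49.5% of all contigs. The count of 11 was 38 without Rodeo 2 (19%, against 5.08% of all contigs), 24 without control 3 (12%, against 6.87%) and 5 without Rodeo 4 (2.5%, against 4.27%). Of the 38, 23 belonged to the largest covariation group. Its members move together, so they are not separate observations.

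LMB_Assem.0.CB829 was at 5.91, 16.9, 30.8 and 9.97 CPM in the controls and 19.1, 27.5, 39.1 and 38.6 CPM in the Rodeo fish. Control 3 reached the Rodeo range, and the others were below it (log2 fold change 1.04 ± 0.44 SE, edgeR adjusted p 0.998). contig24716 was at 50.5, 18.01, 24.3 and 73.4 CPM in the controls and 71.3, 83.95, 92.97 and 40.2 CPM in the Rodeo fish. Controls 1 and 4 lay within the Rodeo range and Rodeo 1 and 4 within that of the controls (0.91 ± 0.39 SE on the log2 scale, edgeR adjusted p 0.998). In the glyphosate fish contig24716 was at 117.7, 81.8, 55.4 and 118.5 CPM. Its mean was thus higher with glyphosate (93.4 CPM) than with Rodeo (72.1 CPM), against 41.5 CPM in controls.

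LMB_Assem.1388.C1 was lower in 3 of the 4 Rodeo libraries than in every control, at 20.97, 26.8, 16.6 and 33.2 CPM in the controls and 4.99, 22.6, 6.76 and 6.96 CPM in the Rodeo fish. Rodeo 2 lay within the control range, and the log2 fold change was -1.16 ± 0.42 (SE; edgeR adjusted p 0.998). LMB_Assem.0.C3037, which had no trunk count, was at 6.13, 6.4, 1.22 and 2.72 CPM in the controls and 0.115, 0.249, 0.5305 and 1.798 CPM in the Rodeo fish. Rodeo 1, 2 and 3 were below every control and Rodeo 4 was not (log2 fold change -2.51 ± 0.97 SE, edgeR adjusted p 0.998).

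Rodeo was also set against glyphosate, with control samples in neither arm. No member and 0% of all contigs passed the adjusted threshold, and the lowest adjusted p among members was 0.451 in edgeR. At an unadjusted p under 0.05 there were 23 members (11.5%), against 9.16% of all contigs, with 10 higher with Rodeo (5%, against 5.01%) and 13 lower (6.5%, against 4.15%). DESeq2 called 1 member (0.5%), LMB_Assem.1388.C1, against 0.331% of all contigs. The groups did not overlap for 7 members (3.5%), against 6.49%. The median log2 fold change was -0.11 among members and -0.05 among all contigs, and it was above 0 for 90 members (45%), against 47% of all contigs.

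LMB_Assem.1388.C1 was at 39.3, 81.9, 23.4 and 29.7 CPM in the glyphosate fish and 4.99, 22.6, 6.76 and 6.96 CPM in the Rodeo fish. All Rodeo libraries were below all glyphosate libraries, though Rodeo 2 only just. The log2 fold change was -1.92 ± 0.43 (SE), with an adjusted p of 0.451 in edgeR and 0.0119 in DESeq2, and a range of 0.0119 to 0.976 over the 15 alternatives.

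isotig104628 was at 50.9, 64.4, 40.6 and 68.8 CPM in the glyphosate fish and 126, 69.4, 124 and 69.6 CPM in the Rodeo fish. The groups did not overlap, with glyphosate 4 just under Rodeo 2 and 4, and the log2 fold change was 1.01 ± 0.33 (SE; edgeR adjusted p 0.451). Its controls, at 90.4, 42.3, 98.6 and 99.04 CPM, lay within the Rodeo range in 3 of 4 libraries. LMB_Assem.11357.C1 was at 67.8, 50.7, 45.3 and 38.6 CPM in the glyphosate fish and 84.1, 99.6, 113 and 46.7 CPM in the Rodeo fish, where Rodeo 4 fell within the glyphosate range (0.92 ± 0.27 SE on the log2 scale, edgeR adjusted p 0.451). LMB_Assem.1428.C1 was at 5.68, 5.73, 0.663 and 26.5 CPM in the Rodeo fish, with a fitted log2 fold change of -6.69 ± 2.06 (SE; edgeR adjusted p 0.451), and -3.13 without glyphosate 2.

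**Figure D5:**
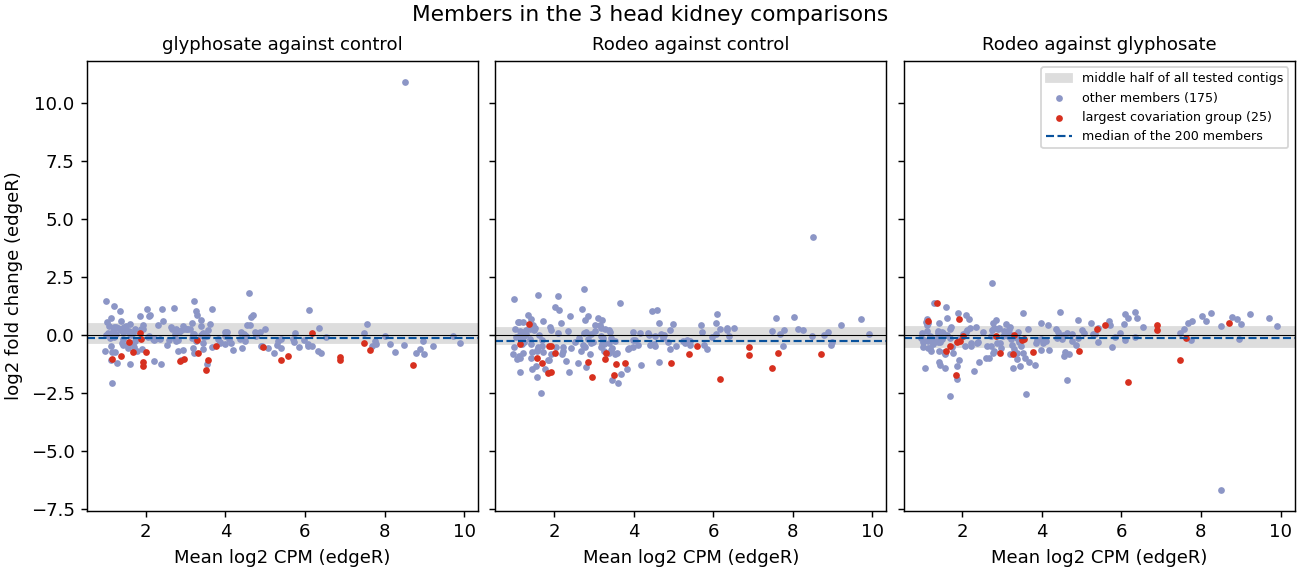
log2 fold change of each member (y axis, edgeR) against its mean log2 CPM (x axis) in the 3 head kidney comparisons; red points are the 25 members of the largest group, the dashed line is the members' median and the band runs between the quartiles of all tested contigs. No point passed the adjusted threshold; LMB_Assem.1428.C1 lies apart at 10.93 with glyphosate against control and at -6.69 with Rodeo against glyphosate.

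With all head libraries in the fit, the largest group of 25 leaned towards lower values in both treatments. Without control 4, which both comparisons share, neither comparison kept that lean in the median edgeR log2 fold change. With glyphosate against control, 23 of the 25 had a negative log2 fold change (median -0.89) and none an unadjusted p under 0.05. Without control 4 the median was 0.03 and 11 were negative. As the group's mean log2(CPM + 0.5), Rodeo 1, 3 and 4 were at 2.57, 1.18 and 0.23, below every control (3.39 to 5.82). On this measure they were thus below the controls with or without control 4. Rodeo 2, at 5.19, was below only control 4. With Rodeo against control, 24 had a negative log2 fold change (median -1.0), and again none had an unadjusted p under 0.05. Without control 4 the median was -0.01 with 13 negative, while without Rodeo 2 it was -2.91 with all 25 negative and 23 at an unadjusted p under 0.05, against 5.08% of all contigs. The 25 were grouped because they move together over these libraries, so their shared sign and their counts are not independent observations. With the 4 unmatched head libraries alone the medians were 0.33 and 0.50. Both comparisons share the 4 control libraries, and no adjusted p of the 25 was under 0.05 in edgeR.

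The smaller groups were likewise formed on these libraries, and agreement within one is not independent evidence. The cases with 4 members at an unadjusted p under 0.05 are given first. In the group of 5 led by LMB_Assem.11263.C1, all 5 had a negative log2 fold change with glyphosate against control (median -0.74, 4 at an unadjusted p under 0.05, against 6.42% of all contigs). All 5 were positive with Rodeo against glyphosate (median 0.74, 4 at an unadjusted p under 0.05, against 9.16% of all contigs). With Rodeo against control the median was 0.12. Both comparisons with glyphosate share its 4 libraries, and the group's members move together, so the results are not separate observations. The group's mean log2 level was 6.74 and 6.51 in glyphosate 3 and 4, below every control (7.29 to 7.82). In glyphosate 1 and 2 it was 7.35 and 7.38, within the ranges of the controls and of Rodeo (7.17 to 7.82). Glyphosate 3 and 4 both match trunk libraries labelled as controls. Controls 2, 3 and 4 and Rodeo 1 and 3 also match trunk libraries of another label. What the group shows without glyphosate 3 and 4 was not tested. The 9 led by contig08940 were all negative with Rodeo against glyphosate (median -0.97, 4 at an unadjusted p under 0.05, against the same 9.16%). None of these passed the adjusted threshold in edgeR.

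With the unmatched head libraries alone (1 control, 1 glyphosate and 2 Rodeo, the lone libraries being assumed to vary like the Rodeo pair), edgeR called 2 members with glyphosate against control (1%, against 0.135% of all contigs). It called 0 with Rodeo against control (0% of all contigs) and 2 with Rodeo against glyphosate (1%, against 0.222%). The first of these sets 1 library against 1, and glyphosate 2 is its only glyphosate library. The members called were LMB_Assem.1428.C1 and contig16918 both times. For LMB_Assem.1428.C1 the control arm was 0.538 CPM and the glyphosate arm 4649 CPM, 1 library each. For contig16918 the glyphosate arm was at 0.109 CPM, against 23.98 CPM in the control and 22.4 and 25.01 CPM in the Rodeo libraries. Over all head libraries, its high values came from control, glyphosate and Rodeo libraries alike, as given above.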

How the data were processed

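Read counts per contig were deposited for 24 libraries, 4 per tissue and treatment; these are whole numbers without normalization, and a contig missing from a library was set to 0. Libraries were poly(A)-selected with a directional kit, per the labels' protocols. The submitters' processing notes name edgeR, DESeq, SAMtools and cutadapt and no versions; aligner, counter and contig source: not given in the sources used here. Members and lists were chosen with earlier results of these data known.

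CPM were computed on library totals. Treatments were compared in the 12 head libraries with edgeR 4.0.16 (R 4.3.3; filterByExpr, TMM factors, quasi-likelihood F test, no block), Benjamini-Hochberg adjusted over all 38656 contigs at 0.05; SE is the log2 fold change divided by the root of F. The script was tested on simulated data. Covariation used log2(CPM + 0.5), average linkage on 1 - r and a height of 0.3. On/off contigs had a gap over 3 log2 units among the libraries of both tissues, and a head-trunk match needed at least 90% of them alike. Named contigs were the 5 highest head means, the 2 smallest p in each direction per comparison (head mean of at least 2 CPM), the 2 lowest and 2 highest CV, those next to the limits, the 2 highest trunk means and the top member of each covariation group. No 2 libraries of a group were duplicates (chi-square per degree of freedom at least 37.9). Alternatives were DESeq2 1.42.0, other scalings, no filter, all 24 libraries, a replicate block, unmatched libraries only and leaving out each library. The trunk floor covers counting error only, while SE and SD include the spread between libraries.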

Additional observations from a re-analysis of the deposited data

Results flagged for a closer look

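Of 90 sets of 4 libraries examined, 10 held a library far from the other 3 by Dixon's test at 95%, which chance gives in about 1 of 20 sets. Several of the contigs were named for a high CV or a small p and some sets repeat the same library, so the number of sets is a description and not a test. In contig69420, head control 1 was at 1240.1 CPM and the other controls at 326 to 453. In LMB_Assem.1428.C1, head glyphosate 2 was at 4649 CPM and the others at 0.179 to 317. LMB_Assem.1388.C1 was at 22.6 CPM in head Rodeo 2 and at 4.99 to 6.96 in the other Rodeo libraries. isotig104628 was low in head control 2, at 42.3 CPM against 90.4 to 99.04. isotig90651 was at 8.79 CPM in head glyphosate 1 against 0.727 to 1.76. contig01539 was at 29.6 CPM in head Rodeo 3 against 20.2 to 21.6.

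Head control 4 and head Rodeo 2 stood apart through the largest covariation group. contig72266 was at 1695 CPM in control 4 (others 229 to 420) and at 1253 CPM in Rodeo 2 (others 10.5 to 176). The mean log2(CPM + 0.5) of the 25 members was 5.82 in control 4 and 3.39 to 3.60 in the other controls. In trunk kidney, the members' summed share was 0.0252% in trunk control 4 against 0.00852 to 0.0109%. The cause of these differences was not tested.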

How the results depend on the processing

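Of the 200 members, 74 were taken again with a ratio of 32, 71 with 4 times that ratio, 126 with medians and 127 with TMM-scaled totals. At the higher ratio the others fell short of it, and at 32 other contigs with a higher head mean filled the limit of 200. Leaving out 1 library kept 163 (trunk control 4) to 195. The 77 members in covariation groups became 29 at a height of 0.2 and 127 at 0.4. Comparisons follow in the order glyphosate against control, Rodeo against control, Rodeo against glyphosate. The share of contigs past the adjusted threshold, 0% by edgeR, was 0.0388%, 0.129% and 0.331% with DESeq2, 0.104%, 0.0373% and 0.198% without the filter, and 0.00572%, 0.00572% and 0.0382% with all 24 libraries. With unmatched libraries alone it was 0.135% in the first and 0.222% in the last. Leaving out 1 library gave 0 to 0.00243%, 0 to 0.00484% and 0 to 0.0499% (without glyphosate 4), and 0 members in each. Members called in the first and last were 1 and 1 with DESeq2 and 1 and 2 without the filter. Rodeo against control gave 0 in both settings. With unmatched libraries alone, LMB_Assem.1066.C8 reversed with glyphosate against control to a log2 fold change of -0.062. Its high libraries, glyphosate 3 and 4, are not in that set. Of the settings of named contigs, 172 kept direction and side, 7 newly passed and 1 reversed. The median of all contigs moved to 0.10, -0.13 and -0.23 with library totals alone and to 0.14, 0 and -0.15 without the filter. The members' median without 1 library was -0.28 to -0.04, -0.30 to -0.12 and -0.21 to -0.01.

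Members at an unadjusted p under 0.05 numbered 17, 11 and 23, and 4, 4 and 8 with all 24 libraries. The 17 became 8 without control 1, 10 without glyphosate 3 and 7 without glyphosate 4, and the 23 became 15 without glyphosate 3. The 11 became 18 with DESeq2 and 28 without the filter. For these changed settings the share of all contigs at that p is not given here. The counts therefore cannot show whether the members moved differently from all contigs. Summed shares without 1 library were 1.05 to 1.15% (head control), 0.881 to 1.10% (glyphosate) and 0.933 to 1.10% (Rodeo), and 0.00971 to 0.0153%, 0.00454 to 0.00628% and 0.00992 to 0.0107% in trunk. Trunk values of many members rest on few counts, which limits their ratios.

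Replicate numbers did not pair the libraries: over 12 same-number pairs the correlation of deviations was -0.16 to 0.06, over 36 others -0.26 to 0.26, and 5 of 24 library comparisons were best with their own number. With the replicate block, 0.00259%, 0.00259% and 0% of contigs and 0 members passed.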

Other observations

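Contigs outside the 200 members also followed the largest covariation group. Of 30214 other contigs with a head mean of at least 1 CPM, 79 correlated with the mean of its 25 members at r of at least 0.9 over the 12 head libraries, and 0 at -0.9 or below; the points share library and depth, and no p is given. Of the 79, 19 (24.1%) were at least 8 times as high in head as in trunk, against 9.20% of all contigs searched, and 22 were higher in trunk. Their median head over trunk was 2.21. LMB_Assem.0.CB2623 (r = 0.97) averaged 17.9 CPM in head and 34.6 CPM in trunk, and contig10811 (r = 0.96) 17.95 and 106 CPM, both chosen for mention after their values were seen. The swing across head libraries was thus shared by contigs that were abundant in trunk.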
